A study of Mus musculus with 2 samples.

Results

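Processed pseudogenes that gave a measurable signal were examined in whole testes of 9-day-old (P9) mice, in 1 control library and 1 Bcas2F/-;Vasa-Cre library. Members were chosen by annotation and by level, as the gene entries that the GENCODE M21 mouse annotation calls processed_pseudogene or transcribed_processed_pseudogene and whose RPKM averaged at least 2 over both libraries, with Gm9855 left out. RPKM is the number of reads scaled to gene length and to library size. The rule gave 143 members, 122 of the first biotype and 21 of the second, among 39695 entries. Of the 4565 processed pseudogene entries, 2824 were listed at 0 in both libraries. The members were selected on the level averaged over both libraries and not the direction of the difference, so the levels are a description. A member could still pass through its higher library alone, and 8 members were under 2 RPKM in control and 3 in Bcas2F/-;Vasa-Cre testes.

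In both groups 1 Bcas2 allele was floxed and the other deleted, and the controls had no Vasa-Cre transgene. Vasa-Cre is active in germ cells, so somatic cells of the testis keep the floxed allele. The labels give the strain as C57BL/6, whereas the study's methods describe a mixed 129/C57BL/6 line, and the number of mice behind each library was not given in the sources used here. With 1 library per genotype the spread between mice was not measured, so no p-value could be given.

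A processed pseudogene arises when a messenger RNA is copied back into DNA and inserted elsewhere in the genome. The copy lacks the introns of its parent gene and usually its promoter, and it gathers mutations that interrupt the reading frame. Highly transcribed housekeeping genes, above all those of ribosomal proteins, have left the most copies in mammalian genomes. A young copy is nearly identical to its parent, so a short read can often be placed on either. BCAS2, the product of the deleted gene, belongs to the Prp19 complex of the spliceosome, the machine that removes introns.

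The library sizes behind the RPKM values, inferred from the steps between the values of 1-exon genes, were 19918750 for control and 19331687 for Bcas2F/-;Vasa-Cre testes. They are not the totals of mapped reads that the study gives, which were not used here. Bcas2 itself stood at 39.5 and 25.7 RPKM, a log2 ratio of -0.60. Markers of the testis cell types were present. The summed RPKM of 5 germ cell markers (Ddx4, Dazl, Kit, Zbtb16 and Stra8) was 404 in control and 304 in Bcas2F/-;Vasa-Cre testes, with all 5 lower. The sum of 4 Sertoli cell markers was 438 and 495, that of 4 Leydig cell markers 375 and 416, that of 2 peritubular myoid cell markers 380 and 351, and that of 4 blood markers 259 and 186. The Leydig list was mixed, with log2 ratios of 0.68 for Cyp17a1, 0.51 for Star, -0.07 for Cyp11a1 and -0.17 for Hsd3b1. So was the myoid list, with -0.13 for Acta2 and 0.02 for Myh11. The blood markers ranged from -0.26 (Hba-a1) to -2.95 (S100a9). In whole testes, fewer cells of a type and less RNA per cell cannot be told apart. The part of these markers in the differences of the pseudogenes was not tested.

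The members were close relatives of expressed genes. A parent, defined as the protein-coding transcript with the best alignment at 80% identity or more over at least 50% of the copy, was found for 125 members, which traced back to 106 genes. The median copy differed from its parent at 4 positions, with 99.3% identity and a longest identical stretch of 227 bases, and 25 copies were identical to the parent over the whole alignment. The alignment of 120 copies ran across at least 1 exon junction of the parent, which shows the missing introns. The longest open reading frame from a start to a stop codon was taken in any forward frame. Counted with its stop codon, it was at least as long as the parent's coding sequence in 46 of the 125. That coding length leaves out the stop codon, and the frame was not compared with the parent's. The annotated length had a median of 563 bases and ranged from 132 to 6514.

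How little separates the copies from their parents is shown by windows of 90 bases for 7 pairs that the results turn on. They were read from GENCODE M21 transcripts on GRCm38 (mm10) in the sense of the gene, lie inside the coding sequence of the parent, and have capitals where copy and parent differ. The 2 differences between BC002163 (chr16:42955678-42955767 on the plus strand) and Ndufs5, which encodes a subunit of respiratory complex I, both lie in this window.
BC002163: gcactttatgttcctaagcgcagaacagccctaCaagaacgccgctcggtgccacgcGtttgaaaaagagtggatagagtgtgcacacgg
Ndufs5: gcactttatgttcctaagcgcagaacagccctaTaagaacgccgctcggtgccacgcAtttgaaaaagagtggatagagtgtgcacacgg
Gm6166 (chr9:57484223-57484312 on the plus strand) differs at 7 positions from Fabp5, the gene of a fatty acid-binding protein, 2 of them in the window.
Gm6166: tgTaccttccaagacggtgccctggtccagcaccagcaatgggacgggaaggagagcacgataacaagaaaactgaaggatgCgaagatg
Fabp5: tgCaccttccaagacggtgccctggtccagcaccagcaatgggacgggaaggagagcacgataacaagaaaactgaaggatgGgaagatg
Gm15920 (chr5:130188448-130188537 on the plus strand) differs at 2 positions from Ndufa12, the gene of another complex I subunit, 1 of them in the window.
Gm15920: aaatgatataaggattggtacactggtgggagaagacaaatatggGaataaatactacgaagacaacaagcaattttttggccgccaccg
Ndufa12: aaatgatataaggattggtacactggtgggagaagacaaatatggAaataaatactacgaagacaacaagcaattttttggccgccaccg
Gm6472 (chrX:152909992-152910081 on the minus strand) differs at 3 positions from Rps7, the gene of a small ribosomal subunit protein, 2 of them in the window.
Gm6472: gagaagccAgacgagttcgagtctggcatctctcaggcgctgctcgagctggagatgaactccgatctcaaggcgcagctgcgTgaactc
Rps7: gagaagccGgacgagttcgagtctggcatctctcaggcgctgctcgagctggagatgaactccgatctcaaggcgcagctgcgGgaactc
Rps3a2 (chr14:88123109-88123198 on the minus strand) differs at 4 positions from Rps3a1, the gene of another small subunit protein, 2 of them in the window.
Rps3a2: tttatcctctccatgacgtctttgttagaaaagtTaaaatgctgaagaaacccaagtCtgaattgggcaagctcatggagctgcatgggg
Rps3a1: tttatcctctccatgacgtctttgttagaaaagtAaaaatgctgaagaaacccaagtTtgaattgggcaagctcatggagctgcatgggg
Pcna-ps2 (chr19:9283935-9284024 on the plus strand) differs at 6 positions from Pcna, which encodes the sliding clamp of DNA replication, 2 of them in the window.
Pcna-ps2: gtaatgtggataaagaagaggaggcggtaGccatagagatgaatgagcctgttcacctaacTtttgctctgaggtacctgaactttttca
Pcna: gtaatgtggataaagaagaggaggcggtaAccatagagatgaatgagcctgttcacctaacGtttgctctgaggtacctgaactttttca
Gm13456 (chr2:40556598-40556687 on the plus strand) is older, with 45 differences from Eef1a1, the gene of the elongation factor that brings aminoacyl-tRNA to the ribosome, 4 of them in the window.
Gm13456: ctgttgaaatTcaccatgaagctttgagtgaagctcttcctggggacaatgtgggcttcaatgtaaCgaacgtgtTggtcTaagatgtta
Eef1a1: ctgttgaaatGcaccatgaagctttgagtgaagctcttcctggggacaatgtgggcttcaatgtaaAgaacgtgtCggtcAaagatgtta

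Most members were weakly expressed, and a few were as high as their parent genes. The mean RPKM had a median of 4.75, and 108 of the 143 members were under 10. Summed over the members, RPKM was 3341 in control and 2890 in Bcas2F/-;Vasa-Cre testes, which was 0.523% and 0.461% of all RPKM. The 10 highest members held 66.5% of the control sum. Among the 123 members whose parent averaged at least 2 RPKM, 98 stood under 10% of the parent's RPKM in control testes and 5 were at or above it. The reads behind a member, both libraries together, had a median of 153 and ranged from 15 to 12990.

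On the scale of log2 ratios of RPKM + 1, Bcas2F/-;Vasa-Cre over control, the members centred slightly below 0 and spread widely. Their median was -0.06, with quartiles of -0.23 and 0.18 and an SD of 0.49. Below 0 lay 82 members and above it 61, where 46.7% of all genes at the same level lay below 0. All 12977 genes that averaged 2 RPKM or more had a median of 0.01 and an SD of 0.24, and the 11932 protein-coding genes among them had a median of 0.01 and an SD of 0.20. More than 1.5-fold lower were 11 members, against 1.36% of all these genes, and 7 were more than 1.5-fold higher, against 0.956%. The balance of lower and higher members turned with the setting. With a pseudocount of 0.1 there were 12 lower and 15 higher, against 2.01% and 1.59% of all genes. With RPKM rescaled to 1000000 per library there were 15 lower and 22 higher of 202 members, against 1.73% and 1.81%. Without the limit on RPKM, 2.07% of 1740 processed pseudogenes were lower and 2.41% higher, near the 1.86% and 2.03% of 25214 genes. Only 228 of these 1740 averaged at least 1 RPKM, and entries near 0 in both libraries cannot pass 1.5-fold with RPKM + 1. Among the 228 the shares were 7.02% lower and 7.46% higher, against 1.69% and 1.57% of all genes at that level. With the limit of 2 and RPKM + 1, more than 2-fold lower were 4 members, against 0.262%, and 3 were more than 2-fold higher, against 0.301%.

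The members had fewer reads than most genes, so the same comparison was made at a like number of reads. From 200 to under 1000 reads, 6 of 39 members (15.4%) and 2.42% of the 3720 other genes were past 1.5-fold. From 60 to under 200 reads the values were 7 of 63 members (11.1%) and 6.49% of 678 other genes. Under 60 reads, where counting error is large, 5 of 25 members and 31.4% of 309 other genes were past it. At 1000 reads or more, 0 of 15 members and 0.582% of 7902 other genes were. RPKM was not matched in these ranges, and the 1 added to it weighs less at a higher RPKM. From 200 to under 1000 reads its median was 9.12 for members and 7.06 for other genes. From 60 to under 200 reads it was 4.02 and 2.93, under 60 reads 2.87 and 3.07, and at 1000 or more 65.7 and 33.5. The effect on the shares was not tested. Intervals from the reads, which cover counting error only, left out a ratio of 1 for 9 of the 11 lower members and 5 of the 7 higher ones, where 1.18% and 0.533% of the 12751 genes with recovered reads met both conditions.

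**Figure D1:**
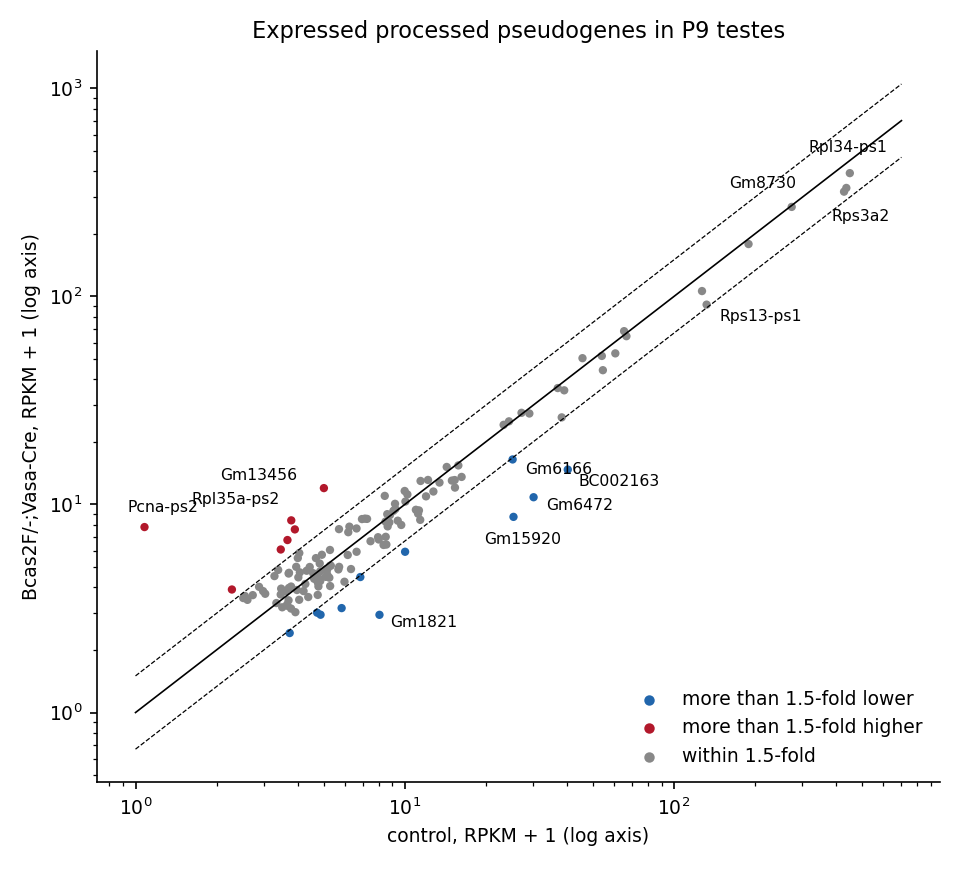
RPKM + 1 of the 143 processed pseudogenes in control (x axis) and Bcas2F/-;Vasa-Cre testes (y axis), both on log axes, 1 point per member and 1 library per genotype. The solid line marks equal values and the dashed lines 1.5-fold, beyond which lie 11 lower (blue) and 7 higher (red) members, none of them among the 10 highest.

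The highest members were copies of ribosomal protein genes. Rpl34-ps1 had 449 RPKM in control and 391 in Bcas2F/-;Vasa-Cre testes, above its parent Rpl34 with 236 and 208. Rps3a3 had 436 and 331 RPKM, and Rps3a2 had 427 and 318. Both copies stood near their parent Rps3a1 in control, at 426 RPKM, and below it in Bcas2F/-;Vasa-Cre testes, at 551. Gm8730 and Gm9625, both copies of Rplp0, the gene of the stalk protein P0 of the large subunit, had 273 and 268 RPKM and 64.3 and 67.1 RPKM. Next came Gm13841 (parent Rpl29) with 188 and 178 RPKM, Rps13-ps1 (parent Rps13) with 131 and 90.4, and Rpl3-ps1 (parent Rpl3) with 65.6 and 63.4. Rps4l, for which no protein-coding transcript reached the identity limit, had 126 and 105 RPKM. The only one of the 10 highest that is neither named as a ribosomal protein gene nor a copy of one was Gm8186, a copy of Snrpg, which encodes a core protein of spliceosomal small nuclear ribonucleoproteins, with 59.6 and 52.3 RPKM. None of the 10 was past 1.5-fold, and 9 lay below 0, with Rps13-ps1 furthest at -0.53, although Gm8730 changed sign when RPKM was rescaled to 1000000 per library.

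The 4 members more than 2-fold lower were copies of complex I, ribosomal protein and ubiquitin genes. Gm15920, a copy of the complex I subunit gene Ndufa12 in an intron of Rabgef1, had 24.4 RPKM in control and 7.72 in Bcas2F/-;Vasa-Cre testes, from 195 and 60 reads. Its log2 ratio was -1.54, and its 95% Clopper-Pearson interval from the reads, without the pseudocount, ran from -2.10 to -1.23. Ndufa12 itself stood at 93.9 and 92.8 RPKM, a log2 ratio of -0.02, so the difference was in the copy and hardly in the parent. BC002163, the other complex I copy, lies in an intron of Zbtb20 and had 39.3 and 13.7 RPKM, from 322 and 109 reads. Its log2 ratio was -1.45 and its interval -1.85 to -1.20. Ndufs5, its parent, differed in the other direction, with 63.8 and 86.0 RPKM. The host genes of both copies, on the same strand, were slightly higher, Rabgef1 with 30.3 and 32.6 RPKM and Zbtb20 with 48.9 and 56.9.

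Gm6472, annotated as transcribed, had 29.1 and 9.84 RPKM from 378 and 124 reads. Its log2 ratio was -1.47 and its interval -1.87 to -1.27. Its parent Rps7 had 794 and 739 RPKM. Gm1821 (chr14:46084028-46085000, plus strand), a transcribed copy of the polyubiquitin gene Ubb, had 7.06 and 1.95 RPKM from 97 and 26 reads and a log2 ratio of -1.45. Ubb had 752 and 851 RPKM. In both pairs the parent was far above the copy, which stood at 3.67% (Gm6472) and 0.939% (Gm1821) of the parent's RPKM in control. Whether reads were divided differently between copy and parent was not tested.

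The other 7 members more than 1.5-fold lower were nearer to the threshold. Gm6166, the Fabp5 copy, had 24.2 and 15.5 RPKM from 322 and 200 reads and a log2 ratio of -0.61, while Fabp5 had 12.6 and 16.01 RPKM. In control the copy was listed above its parent, and in Bcas2F/-;Vasa-Cre testes below it. Hist1h2al, close to a histone H2A gene that was listed at 0 in both libraries, had 9.03 and 4.93 RPKM. Gm8615, a copy of the glucosamine-6-phosphate deaminase gene Gnpda1 in an intron of Hmgb1, had 3.87 and 1.95 RPKM, with Gnpda1 at 64.4 and 67.2. Gm11489, for which no parent was found, had 4.83 and 2.18 RPKM and lies in an intron of Tex14, a gene of the bridges that join germ cells, which itself had 55.6 and 42.6. Rpl38-ps2 (19 and 10 reads) and Gm12941 (12 and 6 reads) had intervals that took in a ratio of 1. The last was Gm10093, a copy of the histone deacetylase gene Hdac1, with 5.84 and 3.48 RPKM and a log2 ratio of -0.61. Hdac1 was lower too, with 180 and 151 RPKM, a log2 ratio of -0.26.

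Among the higher members Pcna-ps2 stood apart. It had 0.08 RPKM in control and 6.79 in Bcas2F/-;Vasa-Cre testes, from 2 and 165 reads, and a log2 ratio of 2.85. Without the pseudocount the interval of its log2 ratio ran from 4.53 to 9.47. Pcna had 185 and 142 RPKM, so the parent differed in the other direction. The next lowest control value among the members was 1.28 RPKM (Gm14884). Both Pcna-ps2 and Gm14884 passed the limit only through the Bcas2F/-;Vasa-Cre library. An entry near 0 in 1 library passes only if the other is high, so how rare such members are depends on the selection.

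Gm13456, the older Eef1a1 copy, had 4.01 and 10.99 RPKM from 109 and 290 reads. Its log2 ratio was 1.26 and its interval 1.13 to 1.79. Eef1a1 was listed at 7024 and 6469 RPKM, and Gm6548, another copy of it, had 11.2 and 12.1. Of these 3 only Gm13456 was past 1.5-fold. Rpl35a-ps2 had 2.79 and 7.39 RPKM from 21 and 54 reads and a log2 ratio of 1.15, while Rpl35a, a large subunit protein gene, had 712 and 472 RPKM. Gm10509, a copy of the zinc finger gene Zfp983, had 2.91 and 6.59 RPKM from 45 and 99 reads, with Zfp983 at 5.23 and 5.61. The remaining ones had few reads. Gm20430 (parent Rpl12) had 11 and 23 reads, Gm12208 (parent Uqcr11, a complex III subunit gene) had 8 and 16, and Gm14884 (parent Cycs, the cytochrome c gene) had 5 and 11, and the intervals of Gm12208 and Gm14884 took in a ratio of 1. Zscan30, Gm378 and Smarca5-ps completed the 10 highest ratios with log2 ratios from 0.51 to 0.53, inside 1.5-fold.

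**Figure D2:**
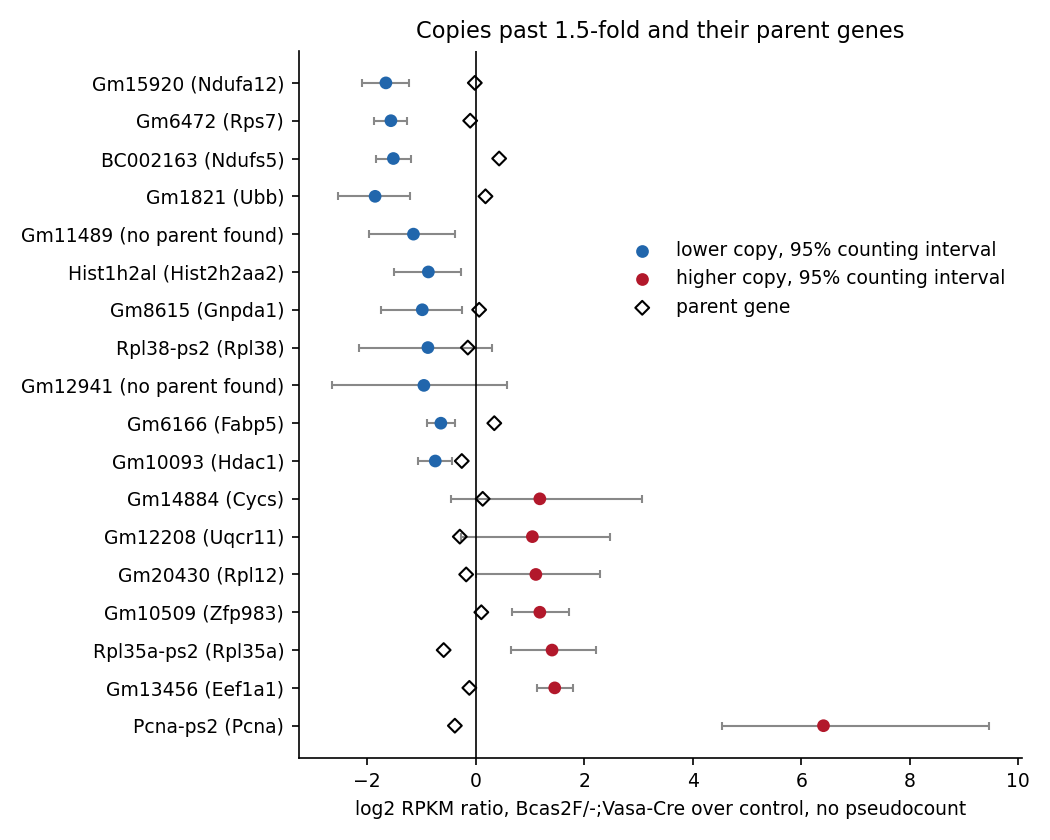
Log2 RPKM ratio without a pseudocount (x axis), Bcas2F/-;Vasa-Cre over control, for the 18 members more than 1.5-fold apart on the scale of RPKM + 1, ordered by that ratio, with the parent gene in brackets. Filled points are copies with the 95% Clopper-Pearson interval of counting error, open diamonds are parent genes, and no parent lies as far out as its copy. Hdac1 lies on the same side as Gm10093.

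The copies were next set beside their parents, which share most of their sequence but not their position. For 123 members the parent had a mean RPKM of at least 2, and these were 104 genes with a median log2 ratio of -0.07. The ratios of copy and parent had the same sign in 78 pairs and opposite signs in 45. Across the pairs Pearson's r was -0.17 and Spearman's rho 0.04, given as a description because pairs share parents, libraries and possibly reads. Of the 104 parents only Rpl35a was past 1.5-fold, at -0.59, where 1.36% of all genes were that much lower. Among 15 members past 1.5-fold with a parent of at least 2 RPKM, 9 differed in the direction opposite to it. Since 74 of the 104 parents lay below 0, a higher copy would often have a parent of opposite sign whatever their relation. Of the 123 copies, 19 were more than 1.5-fold away from the parent's ratio.

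**Figure D3:**
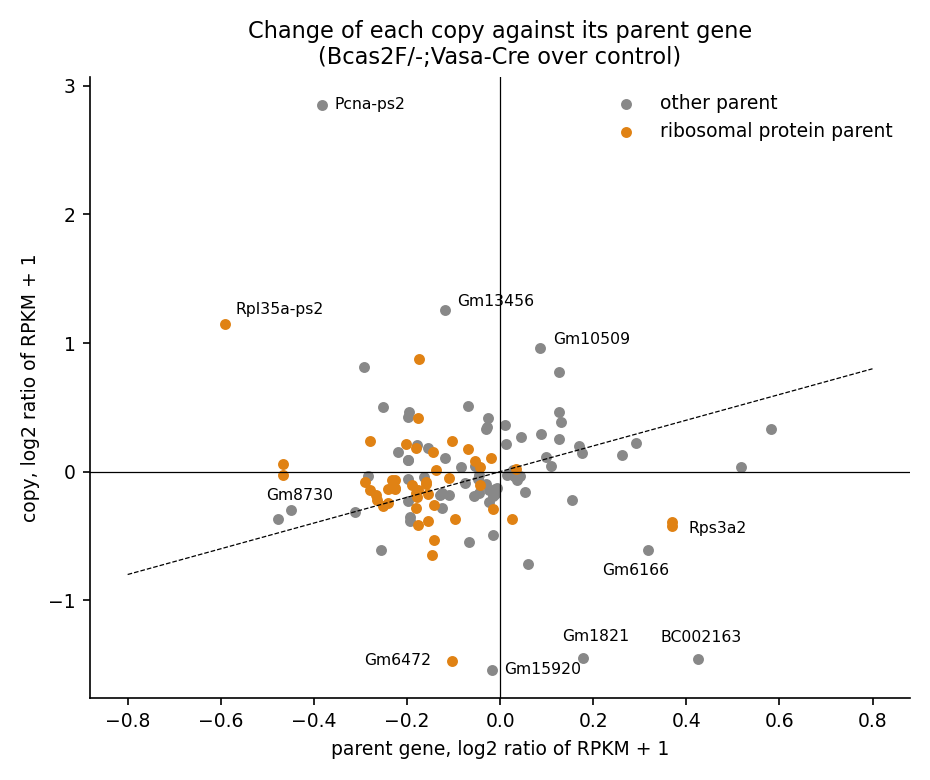
Log2 ratio of RPKM + 1 of each copy (y axis) against that of its parent gene (x axis), Bcas2F/-;Vasa-Cre over control, for 123 copies whose parent had a mean RPKM of at least 2. The dashed line marks equal ratios, orange points have a ribosomal protein parent, and the copies with the largest ratios lie far from the line while their parents stay between -0.59 and 0.42.

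Where a copy held a sizeable share of the family's reads, the reads of copy and parent were added. For BC002163 and Ndufs5 the copy was 213 reads lower and the parent 211 reads higher in the Bcas2F/-;Vasa-Cre library, and the sum was 1007 reads in control and 1005 in Bcas2F/-;Vasa-Cre testes. For Gm6166 and Fabp5 the copy was 122 reads lower and the parent 122 reads higher, and the sum was 854 reads in both. After adjusting for library size the sums had log2 ratios of 0.04 and 0.04, with intervals of -0.09 to 0.17 and -0.10 to 0.18. The reads of both copies rest on a gene length implied by the values, 411 bases for BC002163 and 669 for Gm6166, where 319 and 409 are annotated, so the closeness of these sums depends on it. For BC002163 these are the fewest whole reads that give its ratio. For Gm6166 the fewest are 161 and 100, which would make the sum 693 and 754. At the annotated lengths, which give no whole reads, the sums would be 935 and 981 for BC002163 with Ndufs5 and 729 and 776 for Gm6166 with Fabp5. Each length applies to both libraries of a copy, and the reads of the parents were left as they were. The directions of copy and parent therefore cannot depend on the length and are no check of it.

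In the Rps3a family the copies and the parent also differed in opposite directions, but the amounts did not cancel. Rps3a2 and Rps3a3 together had 14822 reads in control and 10820 in Bcas2F/-;Vasa-Cre testes, and Rps3a1 had 8289 and 10402. The copies had a log2 ratio of -0.41 and the parent one of 0.37, and the sum of 23111 and 21222 reads had one of -0.08, with an interval of -0.11 to -0.05 that left out 0. The Rplp0 family differed from this, since its parent was lower (21881 and 15357 reads, -0.47) and its copies were level (7064 and 6818 reads, -0.01), so that the sum stayed lower at -0.34. In the Rpl34 family copy and parent moved alike, at -0.20 and -0.18. The sum of Gm15920 and Ndufa12 was 1851 and 1647 reads, a log2 ratio of -0.13, with the parent also slightly lower.

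Of 102 parents with recovered reads, 21 had copies with at least 10% as many reads as the parent in control. In 5 of these families the copies and the parent had ratios of opposite sign, and in 4 the sum lay nearer to 0 than either. The ratio of a sum always lies between the ratios of its parts. With opposite signs this outcome is largely set by arithmetic, so it cannot show that family totals were kept. The sums ranged from -0.43 to 0.43 and the copies from -1.66 to 1.18, all as log2 ratios of reads. How reads that match several places were counted is not given in the sources used here, and whether reads were divided differently between the members of a family in the 2 libraries was not tested.

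**Figure D4:**
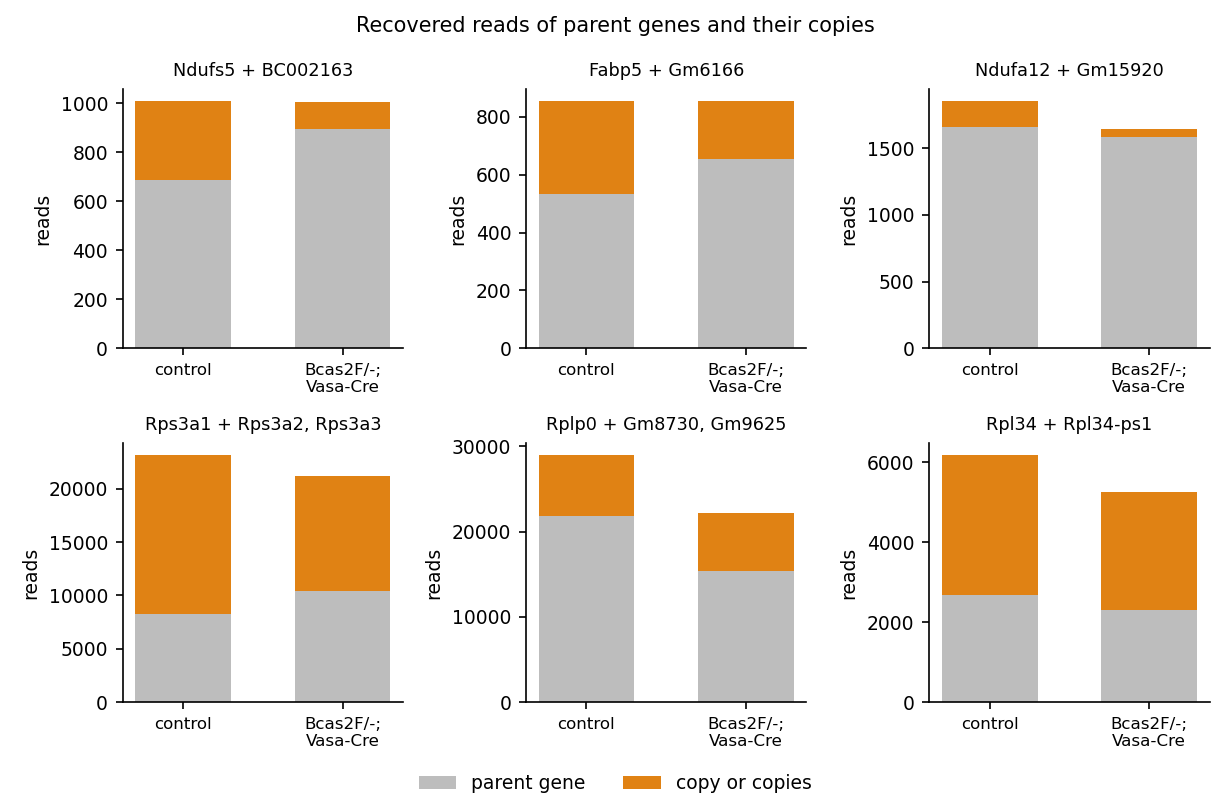
Recovered reads (y axis, from 0) of 6 parent genes (grey) and their copies (orange) in the control and the Bcas2F/-;Vasa-Cre library, stacked. The stacks of Ndufs5 with BC002163 (1007 and 1005 reads) and of Fabp5 with Gm6166 (854 and 854) are of nearly equal height at the implied gene lengths while the orange share is smaller in Bcas2F/-;Vasa-Cre testes, and the stack of Rplp0 with its copies is lower (28945 and 22175) through the parent.

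Copies of cytosolic ribosomal protein genes were the largest class, with 48 members from 37 parents. Their median log2 ratio was -0.12, with 33 below 0 and 15 above. Past 1.5-fold were 2 on the lower side and 2 on the higher, against 1.36% and 0.956% of all genes. The parents, counted once each, had a median of -0.17, and 34 of 37 lay below 0. All 84 protein-coding ribosomal protein genes at this level had a median of -0.17, and 80 of them lay below 0. The copies therefore stood on the same side as the genes of the ribosome but less uniformly, with 30 of 48 above their own parent. The SD was 0.37 over the copies and 0.14 over the coding genes, and the copies had a median of 136 reads against 21042 for the coding genes.

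Other classes held fewer members. Among 10 copies of respiratory chain genes 2 were more than 1.5-fold lower (Gm15920 and BC002163) and 2 higher (Gm12208 and Gm14884), against 1.36% and 0.956% of all genes. The 2 higher ones rest on 8 and 16 reads and on 5 and 11 reads. The class median was -0.10. Of 8 copies of chromatin and histone genes 7 lay below 0 with a median of -0.22, among them Gm10182, a copy of the nucleosome-binding protein gene Hmgn2, at 37.3 and 25.2 RPKM. The 5 copies of the glycolytic gene Gapdh lay between -0.23 and 0.43, and Gapdh itself was at -0.20. The 5 copies of RNA binding and splicing genes lay between -0.19 and 0.27, and none of them was past 1.5-fold. Chaperones, cytoskeleton, translation factors and the ubiquitin system had 3 copies each and the cell cycle 2, too few for a summary. The 35 copies of other genes had a median of 0.01 and the 18 members without a parent one of 0.06.

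Sequence identity, which the rule did not use, went along with the direction of the ratios. The 70 copies with at least 99% identity to the parent had a median log2 ratio of -0.15, and 50 of them lay below 0. The 29 copies from 95% to under 99% had a median of 0.01. The 26 copies from 80% to under 95% had a median of 0.19, and 16 lay above 0. The classes overlapped, and the mean RPKM differed with them, since its median was 6.47 in the closest class and 3.77 in the most distant one. The median number of reads was 167 and 91 in the same classes. Identity was not separated from the class of the parent gene, and 34 of the 37 ribosomal protein parents lay below 0.

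The 25 copies identical to their parent over the alignment have no base there that could tell a read from the parent's. They were listed at 2.66 to 59.6 RPKM in control, with a median of 7.81, and the 24 with recovered reads had between 29 and 1108. Their log2 ratios had a median of -0.16 and ranged from -0.65 to 0.21, with 18 below 0. Only Rpl38-ps2 was past 1.5-fold, on the lower side, where 1.36% of all genes were. The 7 members past 2-fold differed from their parents at 1 to 45 positions.

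**Figure D5:**
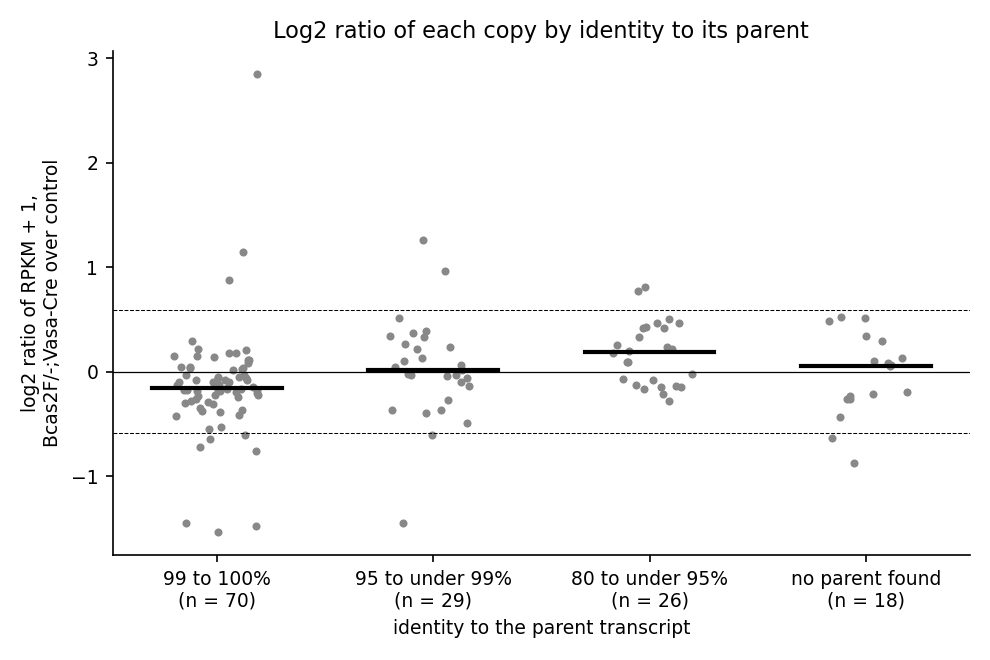
Log2 ratio of RPKM + 1 (y axis), Bcas2F/-;Vasa-Cre over control, of the 143 members by identity to the parent transcript (x axis), 1 point per member spread sideways for legibility. Bars mark medians of -0.15, 0.01, 0.19 and 0.06 from left to right and dashed lines 1.5-fold, and the classes overlap.

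By position, 90 members lay outside protein-coding genes, 28 in an intron of a protein-coding gene on the other strand, 17 in an intron on the same strand, and 8 overlapped an exon of another gene. Past 1.5-fold were 4 lower members and 1 higher one among the 17 on the same strand as their host, and 5 lower and 4 higher among the 90 outside such genes, where 1.36% and 0.956% of all genes were. The class medians were -0.13 on the same strand, -0.11 on the other strand and -0.04 outside. None of the 17 hosts was past 1.5-fold, their log2 ratios ran from -0.58 to 0.21, and 9 members had the sign of their host. Whether the counting used strand was not given in the sources used here. Chromosome 4 carried 19 members and the X chromosome 15, with medians of -0.10 and -0.05. Past 1.5-fold were 1 lower member on chromosome 4, and 1 lower and 1 higher on the X chromosome, against the same shares of all genes (1.36% lower and 0.956% higher).

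The 21 members annotated as transcribed had a median log2 ratio of -0.06, the same as the 122 others, and 3 of them were more than 1.5-fold lower (Gm6472, Gm1821 and Gm8615) and 0 higher, against 1.36% and 0.956% of all genes. Smarca5-ps and Zscan30, also transcribed, passed 1.5-fold higher with a pseudocount of 0.1, at 0.73 and 0.65, and with RPKM rescaled, at 0.60 and 0.59. The highest levels among the 21 were those of Rps4l and 2810025M15Rik, the latter with 22.3 RPKM in control and 23.2 in Bcas2F/-;Vasa-Cre testes and an overlap with an exon of Rasal2. BC022960 had 14.0 and 12.0 RPKM, Gm15500, a copy identical to Rpl5 where aligned, 13.3 and 14.2, and Gm16270 7.61 and 7.99. The log2 ratios of these 4 lay between -0.20 and 0.08. Gm9785 had 10.4 and 7.44 RPKM, and Gm378, a member 97.9% identical to it and also on the X chromosome, had 2.39 and 3.85. Their reads together were 205 and 176. Gm10177 and Zfp640, with parents Sec61g and the zinc finger gene Gm10324, had log2 ratios of -0.16 and 0.20, and the intervals of both took in a ratio of 1.

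The limit of 2 RPKM cut through a continuous range. Just inside it were Gm13717 with 1.51 and 2.55 RPKM, Gm15186 with 1.61 and 2.48, and Gm12941 with 2.74 and 1.41. Just outside were Gm16184 with 1.84 and 2.08 RPKM, Gm13033 with 2.24 and 1.71, and Rpl28-ps1 with 3.09 and 0.91. The 85 processed pseudogenes from 1 to under 2 RPKM had a median log2 ratio of 0.07, and a median of 36 reads. Of them 5 were more than 1.5-fold lower and 10 higher, against 3.99% and 5.88% of the 1854 genes in that range. The 38 unprocessed pseudogenes that averaged 2 RPKM or more, which arise by gene duplication and keep introns, had a median of 0.12 and an SD of 0.28. Among them 1 was more than 1.5-fold lower and 0 higher, against 1.36% and 0.956% of all genes, with a median of 322 reads. No test of the difference between these classes is possible with 1 library per genotype.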

How the data were processed

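RNA was sequenced from P9 testes in 1 control and 1 Bcas2F/-;Vasa-Cre library. The authors aligned paired-end reads with TopHat2 (2.0.9, mm10 in the submitters' processing notes), counted reads by gene using HTSeq, and deposited the result as RPKM, a scaling that takes no account of RNA composition. The annotation release and the treatment of reads matching several places were not given in the sources used here.

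Identifiers were matched to GENCODE M21. Log2 ratios used RPKM + 1, which understates differences of low entries. Whole reads were recovered from the RPKM steps of both libraries, with a tolerance of 0.03 reads. For 57 members the annotated length gave whole reads, for 85 another whole length did, which leaves a whole factor in the reads uncertain, and 1 member had no certain reads. Intervals are 95% Clopper-Pearson intervals and cover counting error only, because each genotype had 1 library. No molecular identifiers were used, so the intervals may be too narrow even for counting error. Parents were found with blastn. Near-identical copies may share reads, so single values are uncertain.

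The text names Bcas2, the 10 highest members, the 10 largest ratios in each direction, the 10 highest transcribed ones, the 3 on either side of the limit, and the parents; 1 of these is not reported here. Other members are examples picked after their values were seen. Members and lists were chosen with earlier results of these data known. Alternatives were pseudocounts, scalings, filters and subsets of members. The procedure was run on simulated libraries, and the outcome is not given here. A smaller share of genes there had a length unlike the annotated one than among the members. Python 3.11.15, numpy 2.4.6, pandas 2.3.3, scipy 1.17.1, matplotlib 3.10.9 and BLAST+ 2.17.0 were used.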

Additional observations from a re-analysis of the deposited data

How the results depend on the processing

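A pseudocount cannot change the sign of a ratio, so the signs under other pseudocounts are no check of direction. Centring subtracted the median over all genes, 0.01, from every ratio. That is less than the size of the smallest named ratio, -0.02 for Gm8730, so it could change no sign either. With RPKM rescaled to 1000000 per library, 1 of 44 named ratios changed sign. The counts changed with the setting. A smaller pseudocount holds low entries less close to 0. Rescaling raised all values, so the added 1 weighed less and more entries passed the limit. How much of each change these steps make was not tested. Under a pseudocount of 0.1, 15 members were more than 1.5-fold higher (1.59% of all genes) and 7 more than 2-fold higher, and with 0.01 the counts were 16 (1.66%) and 7. With RPKM rescaled to 1000000, 202 members passed the limit, 22 of them more than 1.5-fold (1.81%) and 6 more than 2-fold higher. A mean RPKM of at least 1 gave 17 members more than 1.5-fold higher (1.57%), and one of at least 5 gave 5 lower (0.975%) and 2 higher (0.431%). With no limit on 1740 members, 36 were more than 1.5-fold lower (2.07% of them, 1.86% of all genes), 42 higher (2.41% and 2.03%) and 7 more than 2-fold lower. RPKM + 1 keeps entries near 0 in both libraries inside 1.5-fold, so these shares cannot show whether expressed members differ from all genes. The medians turned above 0, to 0.0052 for all members and 0.0055 for those with a ribosomal protein parent. With processed_pseudogene alone 2 members were more than 2-fold lower, against 0.262% of all genes. For the other pseudocounts, scalings and limits the share of all genes past 2-fold was not computed. Members classed as lying in introns of protein-coding genes were left out in 1 setting, a choice made after seeing the data. Then 6 were more than 1.5-fold lower, 4 higher and 2 more than 2-fold lower. The shares of all genes were 1.36%, 0.956% and 0.262%. Leaving out copies identical to another transcript, also chosen after seeing the data, moved no count by over 1.5 times. No paired analysis was possible because each genotype had 1 library. Depth limits the weakest members, since 7 had under 30 reads in both libraries together.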
